A study of Mus musculus with 13 samples.

Results

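Transcripts of 10 genes of the core cell cycle machinery were followed in glomeruli of mice with experimental membranous nephropathy (MN). They are the D-type cyclins *Ccnd1*, *Ccnd2* and *Ccnd3*, the E-type cyclins *Ccne1* and *Ccne2*, cyclin A2 (*Ccna2*), the B-type cyclins *Ccnb1* and *Ccnb2*, and the cyclin-dependent kinases (CDKs) *Cdk1* and *Cdk2*. They were chosen by name, with earlier results of these data known, and their rows are 10 of the 35967 in the deposited expression table. MN was induced in wild-type Balb/c mice, male per the study's methods, by intraperitoneal injection of 2.0 mg of rabbit antibodies against THSD7A, an antigen on the foot processes of podocytes. Mice were sacrificed at day 1 (day 1 MN, n = 4) or day 5 (day 5 MN, n = 4), and mice that received the same amount of rabbit preimmune IgG were pooled over both days into 1 control group (n = 5). No group carried a genetic alteration, the labels give neither the age of the mice nor the day of each control mouse, and both MN groups are compared with the same 5 control libraries. Each library holds RNA of isolated glomeruli of 1 mouse, and podocytes, endothelial cells, mesangial cells and remaining parietal or tubular cells are therefore measured together. Levels are TPM, abundances corrected for transcript length, so that levels of different genes can be compared within a library.

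Cyclins activate CDKs, and different pairs act at different phases of the cell cycle. D-type cyclins bind CDK4 and CDK6 in G1 and act on the retinoblastoma protein, which releases E2F transcription factors. Cyclin E with CDK2 drives the entry into S phase, cyclin A2 acts with CDK2 and CDK1 in S phase and G2, and cyclin B1 and B2 with CDK1 start mitosis. Transcription of the late genes is repressed in resting cells and switched on in S phase and G2, and the A-type and B-type cyclin proteins are destroyed in mitosis. Podocytes are terminally differentiated cells that normally do not divide, and a re-entry into the cell cycle without division has been linked to their loss.

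Promoter sequences are shown for 3 genes that rose together at day 5, *Cdk1*, *Ccnb2* and *Ccnb1*, and for *Cdk2*, which did not pass the test. They were taken from RefSeq on the mouse build GRCm38.p6, which precedes the build of the expression data (GRCm39), and cover 250 bases before and 50 bases after the transcription start, 5′ to 3′ on the strand of the gene. All 4 genes lie on the minus strand. Promoters of 6 of the 10 genes were matched in the table, and *Ccnd1*, *Ccnd2*, *Ccne2* and *Ccna2* were not. Capitals mark letter matches, on either strand, to the cell cycle homology region (TTTGAA or TTCGAA), to the CCAAT box (CCAAT) and to E2F motifs (TTGGCGC or TTCGCGC or TTCCCGC).
Cdk1, chr10:69352863-69353162: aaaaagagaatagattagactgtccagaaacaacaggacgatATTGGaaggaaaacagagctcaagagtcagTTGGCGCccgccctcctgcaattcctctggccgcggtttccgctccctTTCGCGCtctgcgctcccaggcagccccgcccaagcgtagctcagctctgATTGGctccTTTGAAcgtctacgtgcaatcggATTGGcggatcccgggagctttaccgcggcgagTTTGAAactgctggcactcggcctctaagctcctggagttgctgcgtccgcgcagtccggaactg
Ccnb2, chr9:70421505-70421804: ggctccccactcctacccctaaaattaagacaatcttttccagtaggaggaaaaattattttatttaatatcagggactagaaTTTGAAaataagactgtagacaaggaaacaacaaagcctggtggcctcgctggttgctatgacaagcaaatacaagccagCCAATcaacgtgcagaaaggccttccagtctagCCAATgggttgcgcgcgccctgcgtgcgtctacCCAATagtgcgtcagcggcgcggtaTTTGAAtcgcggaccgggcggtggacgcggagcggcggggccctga
Ccnb1, chr13:100786437-100786736: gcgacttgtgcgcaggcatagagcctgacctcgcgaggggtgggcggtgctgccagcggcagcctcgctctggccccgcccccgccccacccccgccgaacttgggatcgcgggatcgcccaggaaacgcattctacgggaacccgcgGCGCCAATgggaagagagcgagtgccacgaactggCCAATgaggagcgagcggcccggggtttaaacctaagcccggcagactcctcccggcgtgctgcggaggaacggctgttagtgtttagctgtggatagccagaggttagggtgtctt
Cdk2, chr10:128705002-128705301: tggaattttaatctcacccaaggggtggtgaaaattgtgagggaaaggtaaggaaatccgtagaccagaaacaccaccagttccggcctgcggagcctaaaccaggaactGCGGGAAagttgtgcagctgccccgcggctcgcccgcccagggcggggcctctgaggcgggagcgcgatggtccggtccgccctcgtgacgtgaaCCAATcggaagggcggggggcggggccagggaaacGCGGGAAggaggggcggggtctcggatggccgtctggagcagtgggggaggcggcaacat

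The window of *Cdk1* held TTTGAA at positions -71 and -15 from the start, CCAAT on the opposite strand at -208, -80 and -48, and E2F letters at -178 and -130. *Ccnb2* held TTTGAA at -167 and 5, CCAAT at -87, -54 and -21, and no E2F letters. *Ccnb1* held CCAAT at -99 and -67, an E2F match on the opposite strand at -102 that overlaps the first of these, and no cell cycle homology letters. *Cdk2* held CCAAT at -45 and E2F letters on the opposite strand at -140 and -10. The first of these motifs was found in 19.2% of all 32851 promoters of this length, the CCAAT box in 37.4% and an E2F motif in 8.07%. Of the other matched genes, *Ccnd3* has a pair of promoters in the table, of which 1 held CCAAT at -108, and the promoter of *Ccne1* held none of these letters. A match of letters is a description and does not show that a factor binds.

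Podocyte, endothelial and mesangial markers were at high levels in every library. The summed level of 8 podocyte markers was 7578 to 10222 TPM in control, 8385 to 10261 at day 1 and 9139 to 9819 at day 5. The 8 markers of the proximal tubule summed to 2268 to 8226 TPM in control, 3955 to 7201 at day 1 and 2926 to 3547 at day 5, and control replicate 5 was the highest. Distal nephron markers (6 genes) summed to 256 to 521, 498 to 904 and 347 to 482 TPM, and red blood cell markers (5 genes) to 207 to 472, 91.5 to 282 and 205 to 473 TPM. Depth of the libraries is unknown, since TPM do not hold read numbers. Differences were tested with limma on log2(scaled TPM + 0.5) over the 14322 genes with at least 1 TPM in at least 4 libraries. A gene was called at an adjusted p-value under 0.05 (Benjamini-Hochberg) and an absolute log2 fold change above 0.5. On this scale, fold changes of genes near or under 1 TPM come out smaller than they are. All 10 genes were tested. *Ccnb1* passed the filter only through its day 5 libraries, as none of the 9 other libraries reached 1 TPM.

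At day 5, the transcripts of the S, G2 and M phases were higher than in control, whereas none of the G1 cyclins was called. *Cdk1*, *Ccna2*, *Ccnb1*, *Ccnb2* and *Ccne2* rose, so that 5 of the 10 genes were called, all as higher. Among all tested genes, 2.42% were called as higher in this comparison. By phase, calls were made for 0 of 3 G1 cyclins, 1 of 3 genes of the G1 to S transition, cyclin A2, and 3 of 3 genes of G2 and M. Without *Ccnb1*, which entered the test only through day 5, 4 of 9 were called. In 8 of the 10 genes, every day 5 library was above every control library, which held for 5.07% of all tested genes. An adjusted p under 0.05 regardless of size was reached by 6 of the 10, *Ccnd1* in addition, and by 6.12% of all tested genes. The median log2 fold change over the 10 genes was 1.01, against -0.0032 over all tested genes. In a bulk sample, fewer cells of a type and less RNA per cell cannot be told apart, and neither can more cells in cycle and more RNA per cycling cell.

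**Figure D1:**
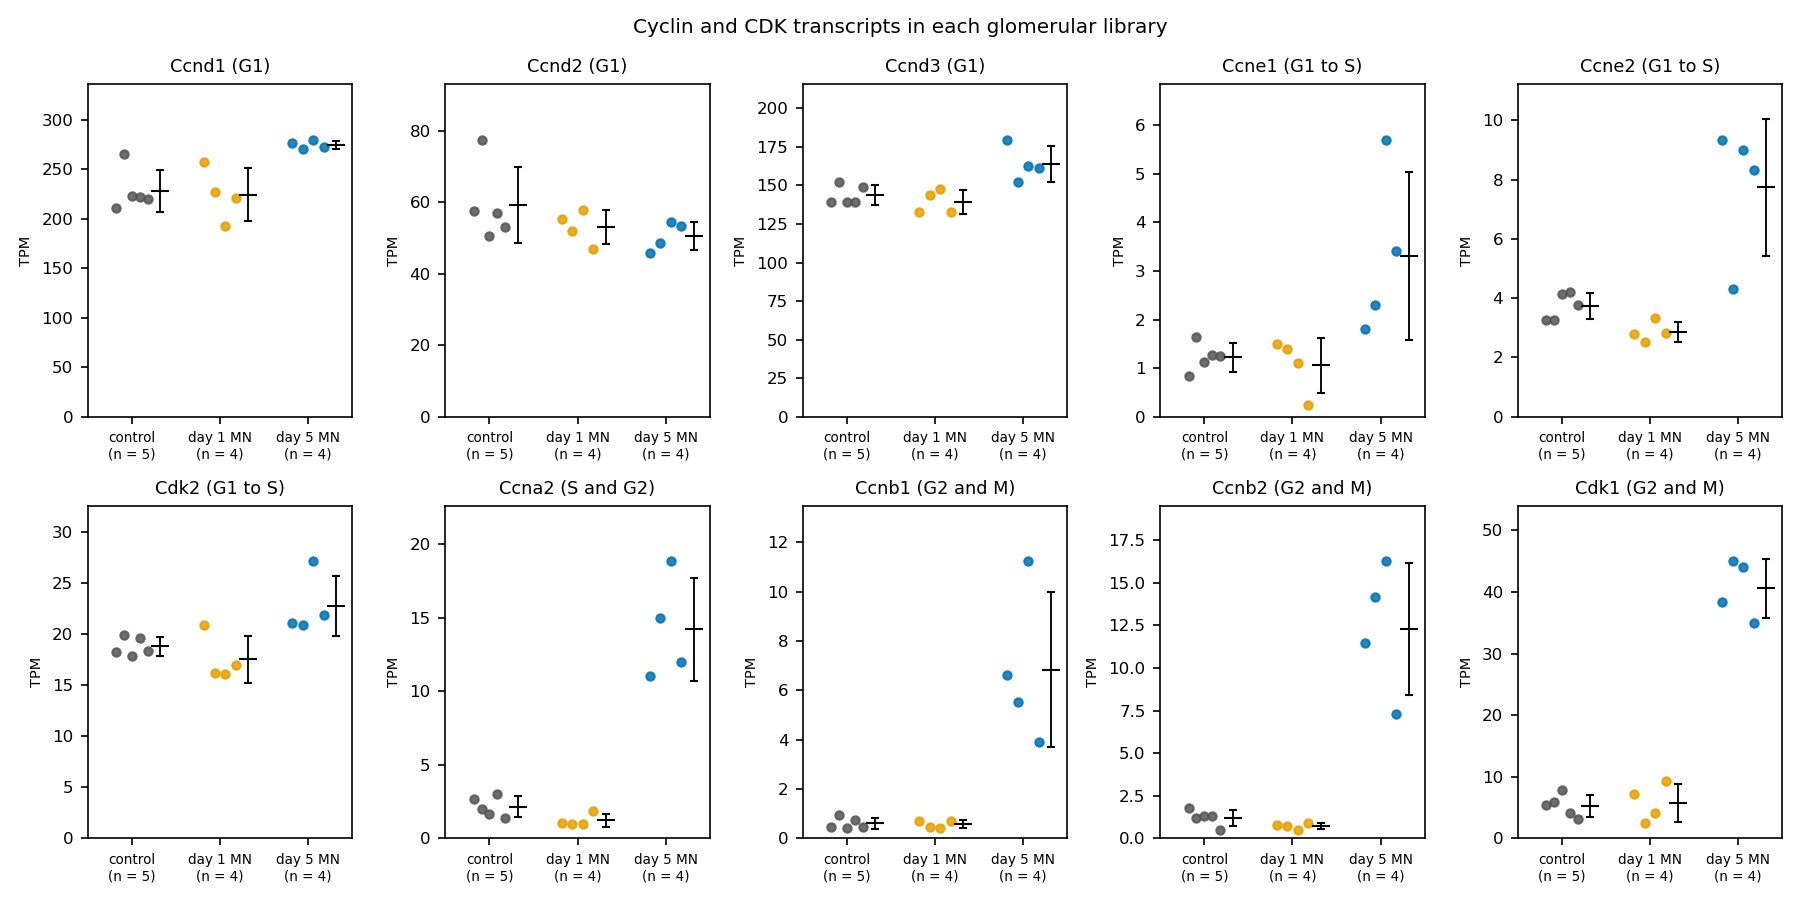
TPM (vertical axes, linear, from 0) of the 10 genes in each library of the control (n = 5), day 1 MN (n = 4) and day 5 MN (n = 4) groups, with points for libraries and bars for mean ± SD. Cdk1 lay between 35.0 and 45.0 TPM in day 5 libraries and did not exceed 9.38 TPM in any other library, while Ccnd2 overlapped between all groups.

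The G1 cyclins were the most abundant of the 8 cyclins among these genes. *Ccnd1* (cyclin D1, chromosome 7, 144483668 to 144493662, minus strand, GRCm39) was measured at 211, 265, 223, 223 and 220 TPM in control libraries, 257, 227, 193 and 221 TPM at day 1, and 277, 271, 280 and 273 TPM at day 5. All day 5 libraries were above all control libraries, and control replicate 2 was close to them. The log2 fold change at day 5 was 0.31 ± 0.08 (SE), with a 95% confidence interval of 0.13 to 0.48 and an adjusted p of 0.0431 by limma, and it was not called, since it stayed under the fold threshold. Over the fits that left out 1 library each, its adjusted p was 0.0154 to 0.122. The gene *LTO1* lies on the opposite strand and overlaps 61% of the *Ccnd1* transcript, it was listed at 42.5 to 62.8 TPM, and the strand setting of the libraries is not given in the sources used here, so reads of the overlap may be shared.

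*Ccnd3* (cyclin D3, chromosome 17, 47815767 to 47910624, plus strand) was at 139, 152, 139, 139 and 149 TPM in control, 133, 144, 148 and 133 TPM at day 1, and 179, 152, 163 and 161 TPM at day 5. The lowest day 5 library lay at the level of the highest control library. Its log2 fold change at day 5 was 0.22 ± 0.06 (SE; interval 0.08 to 0.36; adjusted p = 0.0607 by limma). *Ccnd2* (cyclin D2, chromosome 6, 127102125 to 127129156, minus strand) was at 57.6, 77.5, 50.5, 57.1 and 53.2 TPM in control, 55.4, 52.1, 57.8 and 46.8 TPM at day 1, and 45.9, 48.6, 54.4 and 53.3 TPM at day 5. Its groups overlapped, and it was the only 1 of the 10 genes with a negative estimate at day 5 (log2 fold change -0.18 ± 0.10, interval -0.39 to 0.04, adjusted p = 0.356). Within the D-type cyclins, *Ccnd2* made up 12.2% to 15.6% of the summed TPM in control, 11.7% to 14.5% at day 1 and 9.14% to 10.95% at day 5. The mean share of *Ccnd3* was 33.4% in control, 33.5% at day 1 and 33.5% at day 5.

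The genes of the G1 to S transition differed among themselves. *Ccne2* (cyclin E2, chromosome 4, 11190303 to 11204947, plus strand) was at 3.27, 3.28, 4.12, 4.22 and 3.78 TPM in control, 2.79, 2.51, 3.32 and 2.83 TPM at day 1, and 9.34, 4.32, 8.99 and 8.31 TPM at day 5. Day 5 replicate 2 lay just above the highest control library, and the other 3 day 5 libraries were well above it. *Ccne2* rose 1.92-fold at day 5 (log2 fold change 0.94 ± 0.19 SE, adjusted p = 0.00887 by limma). *Ccne1* (cyclin E1, chromosome 7, 37797404 to 37808264, minus strand) was at 0.831, 1.64, 1.12, 1.26 and 1.26 TPM in control, 1.498, 1.39, 1.11 and 0.238 TPM at day 1, and 1.82, 2.30, 5.70 and 3.41 TPM at day 5. All day 5 libraries were above all control libraries, but they differed from each other more than those of *Ccne2*, with a coefficient of variation of 52.3% against 29.9%. The log2 fold change of *Ccne1* was 1.08 ± 0.33 (interval 0.38 to 1.78), which was not called (adjusted p = 0.0714). It was called when day 1 replicate 4, the library with the lowest *Ccne1*, was left out of the shared estimate of the spread (adjusted p = 0.0272).

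*Cdk2* (chromosome 10, 128533796 to 128540963, minus strand), the kinase partner of both E-type cyclins and of cyclin A2, was at 18.2, 19.9, 17.9, 19.6 and 18.4 TPM in control, 20.9, 16.2, 16.05 and 17.0 TPM at day 1, and 21.1, 20.9, 27.1 and 21.9 TPM at day 5. The day 5 libraries were above all control libraries by a narrow margin, except for replicate 3, which was higher than the rest. The log2 fold change was 0.30 ± 0.09 (interval 0.11 to 0.49), or 1.23-fold, and was not called (adjusted p = 0.0686 by limma).

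Cyclin A2 rose at day 5. *Ccna2* (chromosome 3, 36619014 to 36626299, minus strand) was at 2.70, 1.99, 1.67, 3.03 and 1.396 TPM in control, 1.05, 1.01, 0.950 and 1.85 TPM at day 1, and 11.01, 15.0, 18.8 and 12.01 TPM at day 5. No day 5 library came near the control range. The change was 5.69-fold (log2 fold change 2.51 ± 0.22 SE, adjusted p = 3.02e-05 by limma).

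All 3 genes of G2 and M rose at day 5. *Cdk1* (chromosome 10, 69170976 to 69236595, minus strand), the mitotic kinase, was at 5.34, 5.82, 7.86, 4.08 and 3.17 TPM in control, 7.12, 2.44, 4.19 and 9.38 TPM at day 1, and 38.4, 45.0, 44.0 and 35.0 TPM at day 5. The day 5 libraries were close to each other (coefficient of variation 11.7%), whereas those of day 1 spread widely (53.2%). *Cdk1* rose 7.55-fold at day 5 (log2 fold change 2.92 ± 0.31 SE, adjusted p = 8.28e-05 by limma).

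*Ccnb2* (cyclin B2, chromosome 9, 70314966 to 70328874, minus strand) was at 1.79, 1.17, 1.31, 1.31 and 0.476 TPM in control, 0.784, 0.702, 0.492 and 0.913 TPM at day 1, and 11.5, 14.2, 16.3 and 7.30 TPM at day 5. It rose 7.61-fold at day 5 (log2 fold change 2.93 ± 0.26 SE, adjusted p = 3.08e-05). *Ccnb1* (cyclin B1, chromosome 13, 100915153 to 100923116, minus strand) was at 0.456, 0.948, 0.430, 0.762 and 0.450 TPM in control, 0.712, 0.440, 0.419 and 0.712 TPM at day 1, and 6.63, 5.54, 11.2 and 3.90 TPM at day 5. It rose 6.40-fold (log2 fold change 2.68 ± 0.26 SE, adjusted p = 6.09e-05). Both B-type cyclins were lowest at day 5 in replicate 4 and highest in replicate 3. Transcripts of 4 other loci, *Ccnb1-ps*, *Gm12856*, *Gm4870* and *Gm8416*, match that of *Ccnb1* at 94.4% to 99.2% identity over 50% to 51% of its length, and they are listed at 0 TPM in every library, so that the split of reads between them and *Ccnb1* is uncertain.

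**Figure D2:**
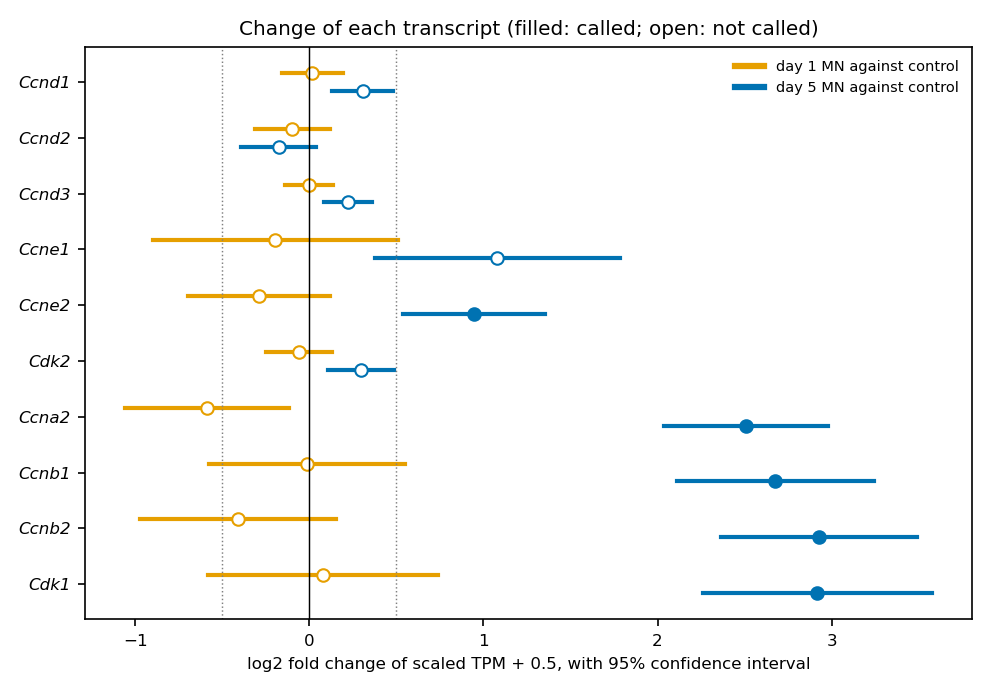
Log2 fold change of scaled TPM + 0.5 (horizontal axis) with its 95% confidence interval for each gene, at day 1 MN and day 5 MN against the same control libraries. Filled points passed both thresholds and dotted lines mark a log2 fold change of 0.5 in either direction. At day 5 the estimates of Ccna2, Ccnb1, Ccnb2 and Cdk1 lie between 2.51 and 2.93, and at day 1 no gene is called.

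At day 1, none of the 10 genes was called, none had an adjusted p under 0.05, and 1 had an unadjusted p under 0.05. Of all tested genes, 0.0908% were called, 0.133% had an adjusted p under 0.05 and 12.6% an unadjusted p under 0.05. For 0 of the 10 genes were all day 1 libraries on 1 side of all control libraries, against 4.22% of all tested genes. The median log2 fold change over the 10 genes was -0.08. *Ccna2* had the largest estimate (log2 fold change -0.59 ± 0.22 SE, adjusted p = 0.319 by limma), and 3 of its 4 day 1 libraries were below the lowest control library. *Ccnb2* was also lower on average (-0.41 ± 0.26, adjusted p = 0.541), with no day 1 library at 1 TPM and 4 of 5 control libraries above it, and the groups overlapped through control replicate 5. *Cdk1* (0.08 ± 0.31, adjusted p = 0.951) and *Ccnb1* (-0.01 ± 0.26, adjusted p = 0.989) had estimates near 0 with wide errors. The estimates of *Ccne2* (-0.29 ± 0.19) and *Ccne1* (-0.19 ± 0.33) did not pass either, nor did those of the D-type cyclins and *Cdk2*, which lay between -0.10 and 0.02. All 8 markers of the proximal tubule had positive estimates at day 1 (median log2 fold change 0.71), as did 6 of 6 of the distal nephron (median 0.79) and 1 of 5 of red blood cells (median -0.78). None of them was called, and their part in these values was not tested.

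The days were also compared directly. The same number of genes, 5 of 10, was called as higher at day 5 than at day 1, against 1.41% of all tested genes, and these were again *Ccne2*, *Ccna2*, *Ccnb1*, *Ccnb2* and *Cdk1*. Without *Ccnb1*, 4 of 9 were called. In 9 of the 10 genes, all but *Ccnd2*, every day 5 library was above every day 1 library, which held for 6.12% of all tested genes. In this comparison, 0 of 8 proximal tubule markers (median log2 fold change -0.69) and 0 of 6 distal nephron markers (median -1.04, *Aqp2* and *Calb1* called as lower) had positive estimates, and 5 of 5 red blood cell markers did (median 1.08, none called). Their part in the values of the 10 genes was not tested. The difference was 10.1-fold for *Ccnb2* (log2 3.34 ± 0.27, adjusted p = 4.27e-05 by limma), 8.54-fold for *Ccna2* (3.10 ± 0.23, adjusted p = 2.98e-05) and 7.15-fold for *Cdk1* (2.84 ± 0.32, adjusted p = 0.000235). For *Ccnb1* it was 2.69 ± 0.28 on the log2 scale (adjusted p = 0.000119), and for *Ccne2* 1.24 ± 0.20 (adjusted p = 0.00369). *Ccne1* (1.27 ± 0.34, adjusted p = 0.0756) and *Cdk2* (0.36, adjusted p = 0.0686) were not called. This comparison shares the day 5 libraries with the comparison against control, so the calls are not independent of each other.

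Within a library, the balance between the kinases and between the cyclins differed at day 5. The ratio of *Cdk1* to *Cdk2* TPM was 0.173 to 0.440 in control libraries, 0.151 to 0.553 at day 1 and 1.60 to 2.15 at day 5, so that *Cdk2* was the more abundant kinase transcript in every control and day 1 library and *Cdk1* in every day 5 library. The cyclins A2, B1 and B2 together made up 0.540% to 1.19% of the TPM of all 8 cyclins in control, 0.4601% to 0.853% at day 1 and 4.44% to 8.30% at day 5. D-type cyclins still held 91.7% ± 1.86 (SD, n = 4) at day 5, compared with 98.0% ± 0.302 (SD, n = 5) in control. The summed TPM of the A2, B1 and B2 cyclins was 3.98 ± 1.15 (SD, n = 5) in control and 33.3 ± 9.84 (SD, n = 4) at day 5. By contrast, the ratio of *Cdk1* to the summed B-type cyclins overlapped between groups, at 1.97 to 4.52 in control, 2.14 to 5.77 at day 1 and 1.60 to 3.12 at day 5. The divisor of this last ratio is low in control and day 1 libraries, none of which reached 1 TPM of *Ccnb1*, so its values there are uncertain. These ratios describe the libraries and were not tested.

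**Figure D3:**
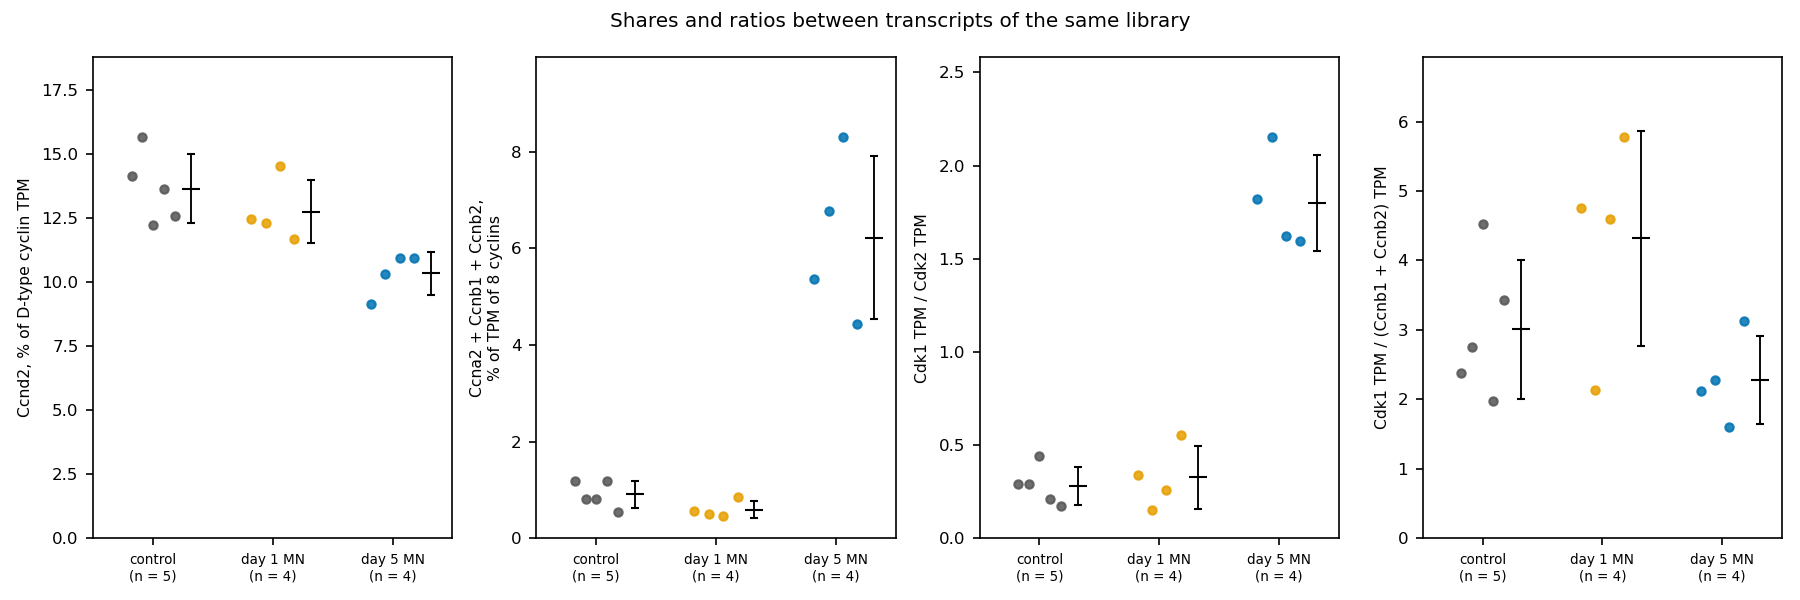
Shares and ratios between transcripts of the same library (vertical axes, linear, from 0), with points for control (n = 5), day 1 MN (n = 4) and day 5 MN (n = 4) libraries and bars for mean ± SD. The share of Ccnd2 among D-type cyclins is 9.14% to 10.95% in day 5 libraries, the share of Ccna2, Ccnb1 and Ccnb2 is 4.44% or more, the Cdk1 to Cdk2 ratio is 1.60 or more, and the ratio of Cdk1 to B-type cyclins overlaps between groups.

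Ordered by mean TPM in control, the genes ran *Ccnd1*, *Ccnd3*, *Ccnd2*, *Cdk2*, *Cdk1*, *Ccne2*, *Ccna2*, *Ccne1*, *Ccnb2* and *Ccnb1*. The levels of neighbours did not overlap down to *Cdk1*, and overlapped from *Cdk1* to *Ccne2* and from *Ccna2* on. The order at day 1 was the same. At day 5, *Cdk1* stood above *Cdk2* without overlap, and the other 5 cyclins followed in the order *Ccna2*, *Ccnb2*, *Ccne2*, *Ccnb1* and *Ccne1*, with neighbours overlapping. Relative to all tested genes, *Cdk1* had a mean TPM above 22.3% of them in control and 67.2% at day 5. *Ccnb1* stood above 1.02% in control and 26.2% at day 5, while *Ccnd1* was above 95.2% and 96.1%. Among the day 5 libraries, replicate 3 was the highest for 7 of the 10 genes, and calls for the 5 genes held in every fit that left out 1 library and still tested the gene.

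Partners and regulators of the cyclins and CDKs were examined as lists, which were also chosen with earlier results of these data known. Neither *Cdk4* (0.14 ± 0.09, adjusted p = 0.4) nor *Cdk6* (0.04 ± 0.27, adjusted p = 0.965), the kinases of the D-type cyclins, was called at day 5. Of 7 other cell cycle cyclins, 4 were tested and 1 was called as higher, against 2.42% of all tested genes. *Ccnf*, a cyclin that serves as an F-box protein rather than a CDK partner, rose from 1.24 ± 0.353 TPM (SD, n = 5) to 3.74 ± 1.28 TPM (SD, n = 4) (log2 fold change 1.29 ± 0.21 SE, adjusted p = 0.00235 by limma). Of 3 subunits of the CDK-activating kinase, 0 were called (median log2 fold change 0.08).

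Of 8 CDK inhibitors, 4 were called at day 5, all as higher, against 2.42% of all tested genes. The count includes 1 gene, *Cdkn2a*, that entered the test only through day 5. *Cdkn1c* encodes p57, an inhibitor that podocytes express at a high level, and went from 1245 ± 151 TPM (SD, n = 5) in control to 1997 ± 171 TPM (SD, n = 4) (log2 fold change 0.72 ± 0.10 SE, adjusted p = 0.000708 by limma). *Cdkn2c*, which encodes the CDK4 and CDK6 inhibitor p18, went from 11.5 ± 2.60 to 27.7 ± 6.24 TPM (1.27 ± 0.18, adjusted p = 0.00075). *Cdkn3*, a phosphatase that removes the activating phosphate from CDKs, went from 1.07 ± 0.546 to 6.95 ± 2.18 TPM (2.29 ± 0.27, adjusted p = 2e-04). *Cdkn2a*, the locus of p16 and p19ARF, was listed at 0 to 0.139 TPM in control and 0 to 0.263 TPM at day 1, and at 1.25 to 2.12 TPM in day 5 libraries, and it passed the filter only through these. *Cdkn1a* (p21; 0.16 ± 0.32, adjusted p = 0.847) and *Cdkn1b* (p27; -0.09 ± 0.07, adjusted p = 0.56) were not called. *Cdkn2d* (p19INK4D) was not called against control (0.43 ± 0.12, adjusted p = 0.047) but was called at day 5 against day 1 (0.55 ± 0.12, adjusted p = 0.0315).

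Among 7 CDK phosphatases, inhibitory kinases and Cks subunits, 3 were called at day 5, all as higher. Of all tested genes, 2.42% were called as higher, which is the share to set beside this list and the next ones. *Cks1b* and *Cks2*, small proteins that bind CDKs, went from 5.41 to 17.4 TPM (log2 fold change 1.62 ± 0.11, adjusted p = 1.16e-05 by limma) and from 11.9 to 33.5 TPM (1.54 ± 0.21, adjusted p = 0.000708). *Pkmyt1*, a kinase that inhibits CDK1, went from 1.94 to 6.80 TPM (1.59 ± 0.16, adjusted p = 7.95e-05). The activating phosphatases *Cdc25b* (0.33 ± 0.14, adjusted p = 0.208) and *Cdc25a* (0.20 ± 0.11, adjusted p = 0.316) were not called. Of 22 genes of cyclin destruction, *Ube2c* (3.26 ± 0.31, adjusted p = 5.47e-05) and *Cdc20* (2.25 ± 0.25, adjusted p = 0.000129), which serve the anaphase-promoting complex, and its inhibitor *Fbxo5* (0.82 ± 0.14, adjusted p = 0.0024) rose, and the list median was 0.06. *Skp1* (-0.03) and *Anapc5* (-0.12), the most abundant genes of this list that did not pass, had estimates near 0. *Ube2s* (0.35 ± 0.08, adjusted p = 0.0226 by limma) was higher in every day 5 library than in any control library but stayed under the fold threshold. Of 20 genes of the E2F, retinoblastoma and B-MYB families and their partners, *E2f8* (which passed the filter only through day 5; 1.97 ± 0.22, adjusted p = 0.000138), *E2f2* (1.63 ± 0.37, adjusted p = 0.0177) and *Foxm1* (1.25 ± 0.18, adjusted p = 0.000792) rose, with a list median of 0.13. *Rbbp4* (0.18) and *E2f4* (-0.01) were not called, and *Tfdp1* (0.31 ± 0.08, adjusted p = 0.041 by limma) stayed under the fold threshold.

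The median of a list of 11 proliferation markers was 1.75 on the log2 scale at day 5. Of these, 10 were called as higher, against 2.42% of all tested genes. The largest changes among them were those of *Birc5* (survivin, 1.38 to 13.9 TPM, log2 fold change 2.99), *Mki67* (the Ki-67 antigen, 1.01 to 11.0 TPM, 2.98), the spindle assembly gene *Tpx2* (1.54 to 10.8 TPM, 2.52) and the mitotic kinase gene *Aurkb* (1.15 to 8.83 TPM, 2.48). *Pcna*, the 1 gene not called, had a log2 fold change of 0.47 (adjusted p = 0.000165 by limma), just under the fold threshold. Among the called genes, *Bub1* would not have passed the filter without its day 5 libraries. It was at 0.214 to 1.02 TPM in control (mean 0.543), 0.157 to 0.196 TPM at day 1 and 2.33 to 3.39 TPM at day 5. In the same comparison, 0 of 8 tested leukocyte markers, 0 of 6 endothelial markers and 0 of 6 mesangial markers were called. Estimates were positive for 7 of the 8 leukocyte markers (median log2 fold change 0.15) and 5 of the 6 mesangial markers (median 0.09). The endothelial estimates were all positive (median 0.20), and *Emcn* (0.29 ± 0.06, adjusted p = 0.0127) was higher in every day 5 library than in any control library. Of 8 podocyte markers, *Cdkn1c* was called as higher, and *Synpo* (-0.46 ± 0.07, adjusted p = 0.00197) was lower in every day 5 library than in any control library but stayed under the fold threshold. The summed leukocyte markers (11 genes) were at 50.4 to 80.1 TPM in control, 63.3 to 88.8 TPM at day 1 and 56.5 to 81.2 TPM at day 5, and the summed markers of parietal epithelial cells (6 genes) at 24.6 to 34.0, 27.4 to 38.3 and 31.2 to 34.9 TPM. Of these 6, *Cldn1* rose (5.38 to 11.9 TPM, log2 fold change 1.08 ± 0.19, adjusted p = 0.0036). *Dkk3* (6.45 to 3.60 TPM, -0.73 ± 0.21, adjusted p = 0.0655) was below all control libraries in every day 5 library but not called, *Ncam1* (8.96 to 6.32 TPM, -0.44 ± 0.16, adjusted p = 0.145) was not called either, and the other 3 had estimates of 0.09 to 0.22. The part of these markers in the cell cycle values was not tested. No gene of any of these lists was called at day 1 against control.

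**Figure D4:**
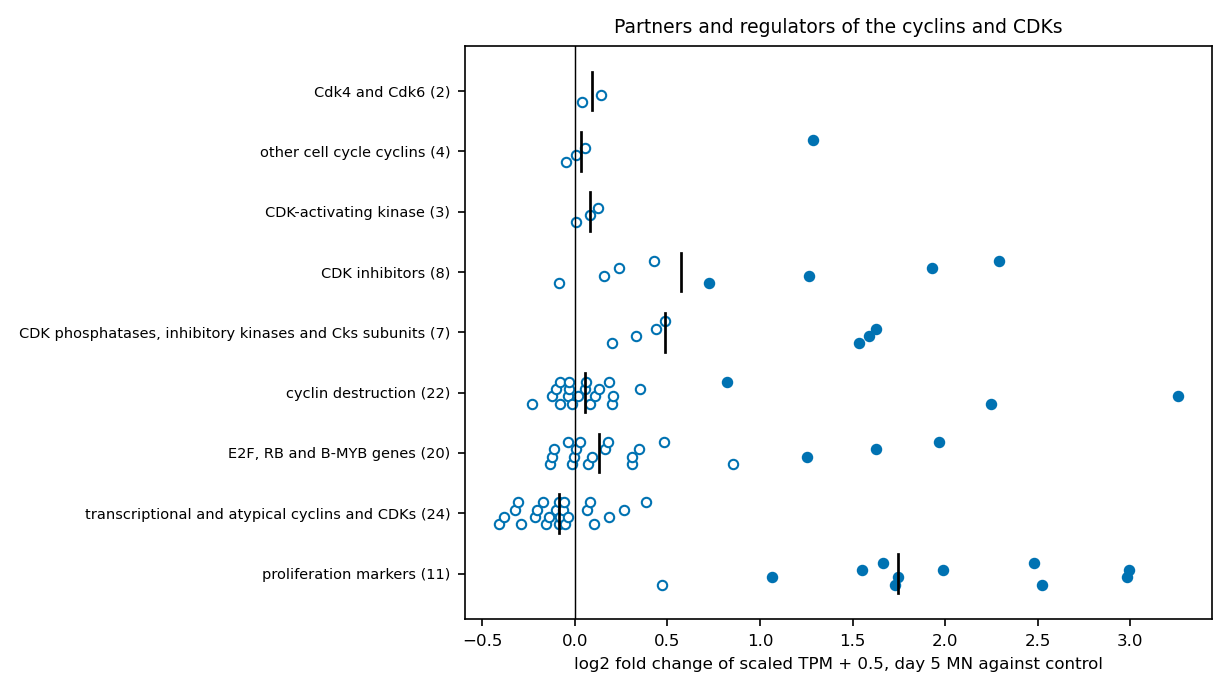
Log2 fold change at day 5 MN against control (horizontal axis) of every tested gene in 9 lists of partners and regulators, with the number tested in parentheses, filled points for called genes and a vertical bar for the list median. The list medians are near 0 for Cdk4 and Cdk6 and for the CDK-activating kinase, and 1.75 for the proliferation markers.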

How the data were processed

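Glomerular RNA was sequenced, and the authors, per the submitters' processing notes, used FastQC 0.11.9, Trimmomatic 0.39 and kallisto 0.46.2 with the mouse build GRCm39. They deposited TPM values per gene symbol in 13 libraries of 13 mice, rescaled within each library, so depth and counting error are unknown. The authors tested counts with DESeq2, which was not repeated here.

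TPM were scaled by median-of-ratios factors, 0.5 was added, and log2 values of 14322 genes (at least 1 TPM in at least 4 libraries) were fitted in limma 3.58.1 (R 4.3.3) with all 3 groups and a mean-variance trend, two-sided, with Benjamini-Hochberg adjustment per comparison over all tested genes. Genes with an adjusted p under 0.05 and a log2 fold change beyond 0.5 in either direction were called. The 10 genes and all lists were chosen with earlier results of these data known, and lists are described by counts and medians only. All 10 genes are named in every result. Of the lists, called cyclins, CDKs, inhibitors and CDK regulators are named, otherwise up to 4 called genes with the largest changes and up to 2 uncalled genes with the highest TPM. Some uncalled genes with an adjusted p under 0.05 are named in addition. Similar transcripts were searched with BLAST+ 2.17.0 (at least 90% identity over at least 50% of the canonical transcript) in GENCODE vM39, which gave the coordinates. Promoters came from RefSeq (GRCm38.p6). Python 3.11.15 with matplotlib 3.10.9 drew the plots. Alternatives concerned the pseudocount, scaling, filter, trend, groups in the fit, replicate block, library weights, the fold threshold and leaving out each library. In a simulation of the day 5 comparison over 14322 genes, 174 of 200 changed genes were called (98% at a log2 change of 2, 76% at 1), with 7 unchanged genes called. Its noise was drawn independently for each gene and library, so these figures do not cover shifts that many genes of a library share.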

Additional observations from a re-analysis of the deposited data

Results flagged for a closer look

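In 4 of 30 gene and group combinations, a library stood apart from the others of its group by Dixon's criterion at the 95% level, which chance alone meets in about 1 in 20 groups. Control replicate 2 had 265 TPM of *Ccnd1* (next highest 223) and 77.5 TPM of *Ccnd2* (next highest 57.6). Day 5 MN replicate 3 had 27.1 TPM of *Cdk2* (next highest 21.9), and day 1 MN replicate 4 had 1.85 TPM of *Ccna2* (next highest 1.05). In control replicate 2 the summed markers of podocytes (7578 TPM), proximal tubule (2268), distal nephron (256) and parietal epithelium (24.6) were the lowest of the control group, and those of endothelium (5668), mesangium (2064) and leukocytes (80.1) the highest. Their part in the *Ccnd1* and *Ccnd2* values was not tested.

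The response differed between the days for 5 genes, tested as day 5 against day 1 in the same limma fit. The difference in log2 fold change was 1.24 for *Ccne2*, 3.10 for *Ccna2*, 2.69 for *Ccnb1*, 3.34 for *Ccnb2* and 2.84 for *Cdk1*, and all 4 day 5 libraries were above all 4 day 1 libraries for each of them.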

How the results depend on the processing

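The calls of *Ccne2*, *Ccna2*, *Ccnb2* and *Cdk1* at day 5 were kept in every alternative that tested the gene, and so was that of *Ccnb1*. Requiring 1 TPM in every library left 2 of the genes called at day 5 against control and 2 against day 1, as *Ccna2*, *Ccnb1* and *Ccnb2* were no longer tested. Leaving out any day 5 library removed *Ccnb1* from the test and left 4 genes called at day 5, and leaving out any other library left 5 to 6. *Ccne1* was called at day 5 when the third group was left out of the fit (1.08, adjusted p = 0.0463) and with library weights (1.16, adjusted p = 0.0364). At day 1, where none of the 10 genes was called in any alternative, signs of small estimates turned. *Ccnd1* was -0.028 without further scaling and -0.0096 after quantile normalization, *Ccnb1* 0.016 and *Cdk1* -0.0070 with library weights, and *Ccnd3* 0.020 with library weights. Leaving out 1 library gave -0.051 to 0.099 for *Ccnd1*, -0.024 to 0.026 for *Ccnd3*, -0.35 to 0.13 for *Ccne1*, -0.079 to 0.082 for *Ccnb1* and -0.19 to 0.39 for *Cdk1*.

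Replicate numbers name different mice, their deviations correlated at -0.056 to 0.091, and 2 of 12 libraries correlated best with their own number, so they do not pair the samples. With the replicate block, 0 of the 10 genes were called at day 1 and 5 at day 5, *Ccnd3* was 0.025 and *Cdk1* -0.057 at day 1, and 149 genes of the whole table were called at day 1 in place of 13. Counts over all genes also moved elsewhere. At day 1 they were 6 without a filter, 7 without the trend, 2 with only the compared groups, and 3 to 218 when 1 library was left out, the highest without control replicate 5. At day 5 the adjusted p alone gave 876 genes in place of 460. Between the days, 259 became 153 with 1 TPM in every library, 423 with only the compared groups, and 150 to 437 without 1 library. The cause was not tested. TPM give no depth, so no floor could be set for genes near 1 TPM.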

Other observations

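Likeness of profiles was measured as the root mean square difference of log2 values centred on the control mean, over 13 libraries. For *Ccna2* the closest genes were *Ckap2* (0.246), *Cep55* and *Anln*, which encode proteins of the spindle and of cytokinesis. For *Ccnb1* they were the mitotic kinesin gene *Kif18b* (0.257), the ribonucleotide reductase subunit gene *Rrm2* and the spindle assembly gene *Tpx2*, and for *Ccnb2* the kinetochore gene *Nuf2* (0.288), *Mxd3* and *Anln*. *Cdk1* was closest to *Mxd3* (0.433), *Pbk* and the mitotic kinesin gene *Kif11*. *Ccne2* was closest to *Smc2* (0.238), a condensin subunit, *Mad2l1* and *Ccsap*, and *Ccne1* to *Cenps* (0.350), *Atad2* and *Oip5*. The less variable *Cdk2* was closest to the chromatin genes *Dek* (0.0914) and *Nucks1* and to *Endod1*, *Ccnd1* to *Snx25* (0.0778), *Cnn3* and *Tsen34*, *Ccnd2* to *Rarg* (0.0859), *Zfp281* and *Cbfa2t3*, and *Ccnd3* to *Esyt2* (0.0537), *Ywhah* and *Arhgap10*. The measure is smaller for genes that vary little, so the values are not comparable between the 10 genes. It includes the differences between groups, so a gene that rose at day 5 lies near genes with a similar rise. Variation shared between mice of the same group was not measured separately.

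Of 24 cyclins and CDKs that act in transcription or have atypical roles, 0 were called at either day against control, with a median log2 fold change of -0.09 at day 5. *Ccni* (-0.07) and *Cdk9* (-0.06), the kinase that releases paused RNA polymerase, had the highest TPM of them when the means of the 3 groups were averaged, while *Ccnl2* (122 TPM) was above *Cdk9* (119.6 TPM) in control. At day 5, 6 of the 24 estimates were positive. *Cdk11b* (-0.31 ± 0.07, adjusted p = 0.0164 by limma) and *Ccng1* (-0.29 ± 0.06, adjusted p = 0.0149) stayed under the fold threshold. For both, every day 5 library was below every control library.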
